A study of Mus musculus with 11 samples.

Results

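Transcripts that begin with a terminal oligopyrimidine (TOP) motif encode most of the translation machinery. The 8 genes described here, Rack1, Btf3, Naca, Fau, Pabpc1, Hnrnpa1, Npm1 and Tpt1, are a fixed list of known TOP transcripts. The list was meant to lie outside the ribosomal proteins and the translation factors, but Fau also encodes a ribosomal protein. All 8 were found by symbol among the 55487 genes of the count tables. RNA was measured in the gastrocnemius, a mixed hindlimb muscle, in 11 libraries of 3 groups. In 4 libraries the label gives deletion of both Raptor and mTOR (Raptor mTOR double knock-out), in 3 that of Raptor alone (Raptor knock-out), and 4 are labelled wildtype. All groups carry the label of tamoxifen treatment, begun at 3 months of age and given in chow for 7 weeks, with muscles taken 7 months after it began. The knockout mice had floxed alleles and an inducible Cre, a fusion with a mutated oestrogen receptor domain, under the promoter of human skeletal actin. That promoter works in myofibres, so the other cells of the muscle should keep both genes. Whether the wildtype mice carried the Cre transgene was not given in the sources used here. Libraries were made from 450 ng of total RNA with a kit that reads the 3' ends of polyadenylated RNA, and replicate numbers follow the sample records. The labels do not state that each library is a separate mouse, so p-values measure the spread between these libraries, which may be technical.

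The TOP motif is a cytidine at the cap followed by an unbroken run of pyrimidines. Through it the mTOR kinase, acting in mTOR complex 1 with its subunit Raptor, controls how efficiently these mRNAs are translated. When the complex is inactive, the cap-binding protein LARP1 and the eIF4E-binding proteins hold TOP mRNAs out of polysomes, and LARP1 also stabilises the held mRNAs. The control is therefore best known at translation, whereas the values here are amounts of polyadenylated RNA. RACK1 is a scaffold protein of the small ribosomal subunit. NACA and BTF3 form the nascent polypeptide-associated complex, which meets proteins as they leave the ribosome, and a long muscle isoform of NACA, skNAC, serves sarcomere assembly. FAU encodes a ubiquitin-like protein fused to the small-subunit protein eS30. PABPC1 coats poly(A) tails in the cytoplasm, HNRNPA1 binds RNA in splicing and transport, NPM1 is an abundant nucleolar protein of ribosome assembly, and TPT1, also called TCTP, is a growth-related protein.

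The sequences around the annotated transcription starts show which members carry a pyrimidine run at the annotated cap site. They are RefSeq sequences of build GRCm38.p6, 15 bases before the start and 15 from the start onward, 5′ to 3′ on the transcript strand. Capitals mark the pyrimidine run that covers the start or, where there is none of at least 5 pyrimidines, the longest run in the 30 bases. The RefSeq starts printed here differ from the GENCODE M21 gene ends given with each gene. The table of promoters held 6 of the 8 members, and Npm1 and Pabpc1 are named only.
Rack1: cggaggccgCTCTTTCTTTTTCTCCacagg
Fau: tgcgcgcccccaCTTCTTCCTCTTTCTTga
Naca: gcaactcgTTCTCTTaaagaggaaacccgg
Btf3: CCCTCTagctgccatcttgcgtccccgcgt
Tpt1: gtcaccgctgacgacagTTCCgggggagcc
Hnrnpa1: taCCgagagcgaggaggcgggataaaaggg
These windows lie at chr11:48800345-48800374 (+ strand) for Rack1, chr19:6057932-6057961 (+ strand) for Fau, chr10:128035331-128035360 (+ strand) for Naca, chr13:98316953-98316982 (- strand) for the downstream of 2 annotated starts of Btf3, chr14:75845241-75845270 (+ strand) for Tpt1 and chr15:103240382-103240411 (+ strand) for Hnrnpa1. Rack1 and Fau had a C at the annotated start, followed without a break by further pyrimidines, 10 in all from the start in Rack1 and 13 in Fau. In Naca a run of 7 pyrimidines ended on the base before the start. The other printed starts had no run of 5 pyrimidines that covered them. A C at the start with at least 4 further pyrimidines, read on the transcript strand only, stood in 2.51% of all 32851 promoter windows and in 19.4% of the 67 windows of ribosomal protein genes. A run of at least 8 pyrimidines within 50 bases of the start on either side stood in 4 of the 7 member windows, 80.6% of ribosomal protein windows and 35.7% of all windows. The member windows with such a run were those of Rack1, Fau and the 2 starts of Btf3, which share the same run of 9 bases. Within the same 50 bases on either side, the longest run was 7 bases for Naca, 6 for Tpt1 and 3 for Hnrnpa1. An annotated start can lie some bases away from the cap site in use, so a missing run says only that these letters are not at this annotated start.

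The double-knockout libraries held 2791339 to 3536731 counts, the Raptor-knockout libraries 3223797 to 3764879 and the wild-type libraries 3134575 to 6328533. Levels are counts-per-million scaled by the trimmed mean of M-values (CPM), and group values are mean ± SD over n = 4 double-knockout, n = 3 Raptor-knockout and n = 4 wild-type libraries. Of all genes, 10505 passed the filter on low counts, among them all 8 TOP members. Rptor, which encodes Raptor, stood at 4.83 ± 0.566 CPM in the double knockout, 4.57 ± 0.630 in the Raptor knockout and 9.83 ± 0.946 in wild type. Mtor stood at 35.9 ± 3.36 CPM in the double knockout, 20.6 ± 2.24 in the Raptor knockout and 20.8 ± 5.95 in wild type, so its 3' tags were higher in the double knockout (edgeR adjusted p = 0.00534), against the direction of the label. On the deposited TPM the gap was wider, with 33.0 ± 4.97 TPM in the double knockout, 2.96 ± 0.146 in the Raptor knockout and 3.27 ± 1.26 in wild type. The tags rose 1.71-fold in the double knockout against wild type, so most of the TPM gap was not in the tag counts. TPM and CPM did not carry the same information for Mtor. The sources used here do not give the loxP sites, and tags from the end of a transcript do not show whether a floxed exon was lost. Double-knockout replicates 3 and 4 were deposited under another run name than the other 9 libraries. That run is called the smaller sequencing run here, because it holds fewer of the libraries used. No sample label describes the runs, and the smaller one holds no library of another genotype used here. Xist, an RNA made from the inactive X chromosome, was above 10 CPM in double-knockout replicates 1 to 3 and wild-type replicate 3 and in no other library. The labels give no sex.

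In double-knockout muscle, a contrast the study names, 7 of the 8 TOP mRNAs rose against wild type and 0 fell, where 13.0% of tested genes rose and 13.7% fell (26.7% in either direction). Their median log2 fold change was 0.83, beside 0.018 over all tested genes. Hnrnpa1 rose most, 2.86-fold, then Rack1 1.88-fold, Tpt1 1.83-fold, Naca 1.81-fold, Npm1 1.74-fold, Fau 1.58-fold and Btf3 1.54-fold. Pabpc1 was the exception, with a fold of 1.39 that did not pass. For those 7 genes every double-knockout library lay above every wild-type library, which held for 13.1% of all tested genes. The 8 members together took 0.628% to 0.729% of the unscaled counts of a double-knockout library, 0.536% to 0.595% of a Raptor-knockout library and 0.304% to 0.345% of a wild-type library. The widest exact 95% binomial interval of such a share, 0.719% to 0.739% in double-knockout replicate 1, covers counting error only. Tpt1 alone made up 69.3% to 75.4% of the members' counts. In bulk muscle, more RNA per cell and more cells that express a gene cannot be told apart.

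**Figure D1:**
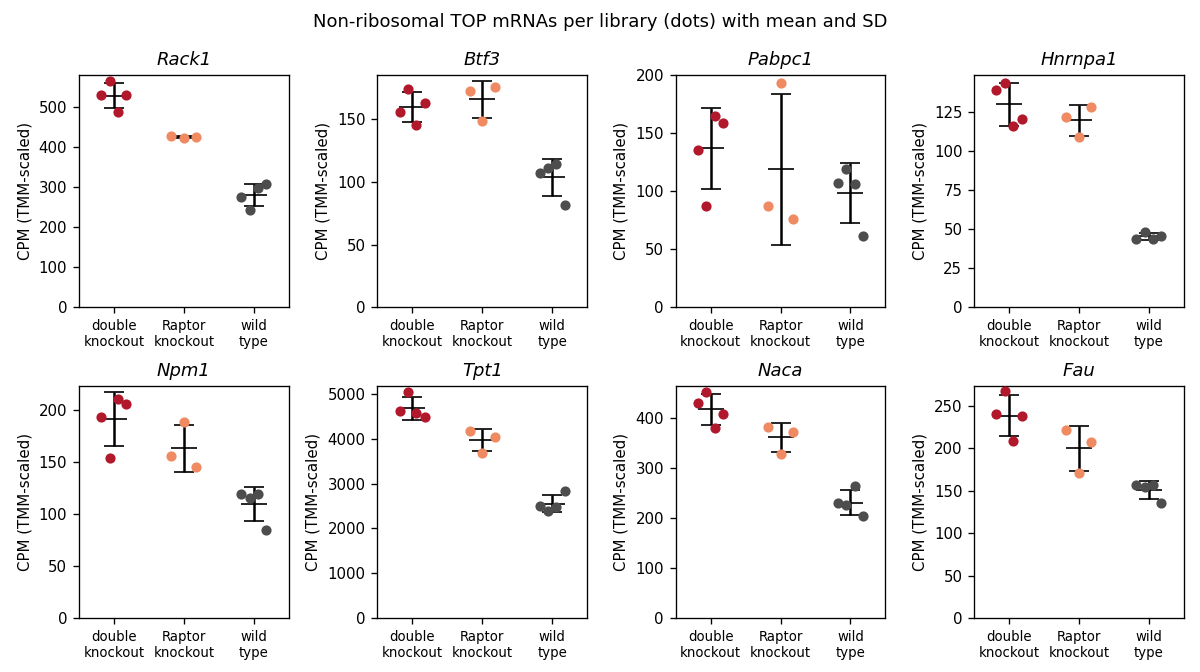
TMM-scaled CPM (vertical axis, from 0) of the 8 TOP mRNAs in each library (dots) of the double-knockout, Raptor-knockout and wild-type groups, with the group mean and SD (bars). In every panel but that of Pabpc1 both knockout groups lie wholly above wild type, and the Hnrnpa1 panel shows it most clearly (109 CPM in the lowest knockout library, 48.3 CPM in the highest wild-type library).

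Rack1 (ENSMUSG00000020372, GRCm38 chromosome 11, 48800332 to 48806434), the ribosomal scaffold, stood at 531, 566, 489.8 and 532 CPM in the double-knockout libraries, 429, 424 and 427 CPM in the Raptor-knockout libraries and 276, 245, 298 and 307 CPM in the wild-type libraries. The 3 groups did not overlap, and the Raptor-knockout libraries lay between the others. Its rise in the double knockout had a log2 fold change 0.91, SE 0.11, edgeR adjusted p = 1.88e-05. Naca (ENSMUSG00000061315, GRCm38 chromosome 10, 128035575 to 128048637), the alpha subunit of the nascent polypeptide-associated complex, stood at 429.8, 452, 379.5 and 407 CPM in the double-knockout libraries, 382, 328 and 372 CPM in the Raptor-knockout libraries and 229, 226, 263 and 204 CPM in the wild-type libraries. Both knockout groups lay above wild type and overlapped each other. Naca rose in the double knockout (log2 fold change 0.85, SE 0.12, edgeR adjusted p = 5.46e-05). Tags from the shared 3' end do not tell skNAC from the short isoform.

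Btf3 (ENSMUSG00000021660, GRCm38 chromosome 13, 98309896 to 98317006), the beta subunit of that complex, stood at 156, 174, 146 and 163 CPM in the double-knockout libraries, 173, 149 and 176 CPM in the Raptor-knockout libraries and 107, 112, 114 and 82.1 CPM in the wild-type libraries. Wild-type replicate 4 was the lowest library, and the 2 knockout groups overlapped. Btf3 rose in the double knockout (log2 fold change 0.62, SE 0.13, edgeR adjusted p = 0.00209). The ratio of Naca to Btf3 counts was 2.61 ± 0.110 in the double knockout, 2.17 ± 0.0524 in the Raptor knockout and 2.24 ± 0.203 in wild type. The double-knockout range of 2.493 to 2.76 lay just above the wild-type range of 2.03 to 2.489, set by double-knockout replicate 4 and wild-type replicate 4. A two-sided exact permutation test of the log2 ratio gave p = 0.0286 for the double knockout against wild type, the smallest that 4 against 4 allows, and 0.0857 after Benjamini-Hochberg adjustment over the 3 comparisons, so the difference did not pass. The same exact test gave p = 0.686 for the Raptor knockout against wild type and p = 0.0571 for the double against the Raptor knockout (adjusted 0.686 and 0.0857), where 3 against 4 libraries cannot give less than 0.0571.

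Fau (ENSMUSG00000038274, GRCm38 chromosome 19, 6057844 to 6059524), the source of eS30, stood at 239.9, 267, 209 and 238 CPM in the double-knockout libraries, 221, 171 and 208 CPM in the Raptor-knockout libraries and 157, 154, 156 and 136 CPM in the wild-type libraries. Raptor-knockout replicate 2 and wild-type replicate 4 were low in their groups, and both knockout groups still lay above wild type. Fau rose in the double knockout (log2 fold change 0.66, SE 0.12, edgeR adjusted p = 0.000825). Reads of Fau and the predicted gene Gm9843 cannot be assigned with certainty, because the last 300 bases of Fau matched Gm9843 over 288 bases without a mismatch. Gm9843 held 3.42% to 15.8% of their joint counts per library, and with both summed the log2 fold change was 0.60 (edgeR adjusted p = 0.00104). Of the other members, Npm1 had 7 and Naca 2 such copies, with 1.53% and 0.569% of the joint counts.

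Of the RNA-binding members, Hnrnpa1 rose and Pabpc1 did not pass. Hnrnpa1 (ENSMUSG00000046434, GRCm38 chromosome 15, 103240432 to 103246692) stood at 139, 144, 116 and 120.3 CPM in the double-knockout libraries, 122, 109 and 128 CPM in the Raptor-knockout libraries and 43.5, 48.3, 44.1 and 46.0 CPM in the wild-type libraries. The wild-type libraries were close together, and the lowest knockout library was well above the highest of them. Hnrnpa1 rose in the double knockout with a log2 fold change 1.52, SE 0.13, edgeR adjusted p = 5.84e-07, higher than the log2 fold change of 97.8% of tested genes. Pabpc1 (ENSMUSG00000022283, GRCm38 chromosome 15, 36595661 to 36609668) stood at 136, 87.5, 165 and 159 CPM in the double-knockout libraries, 86.9, 193 and 76.3 CPM in the Raptor-knockout libraries and 107, 119, 106 and 61.3 CPM in the wild-type libraries. Here the groups overlapped, and both knockout groups held at least 1 library below the wild-type mean of 98.5 CPM. Its difference in the double knockout did not pass (log2 fold change 0.48, SE 0.32, edgeR adjusted p = 0.302), with a 95% interval of the log2 fold change from -0.22 to 1.17.

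Npm1 (ENSMUSG00000057113, GRCm38 chromosome 11, 33152287 to 33163206), of the nucleolus, stood at 193, 154, 211 and 206 CPM in the double-knockout libraries, 156, 189 and 145 CPM in the Raptor-knockout libraries and 119, 115, 119 and 85.2 CPM in the wild-type libraries. Wild-type replicate 4 and double-knockout replicate 2 were the lowest of their groups, and no knockout library reached down to wild type. Npm1 rose in the double knockout (log2 fold change 0.80, SE 0.15, edgeR adjusted p = 0.000748). Tpt1 (ENSMUSG00000060126, GRCm38 chromosome 14, 75845093 to 75848525), the member with the highest deposited TPM, stood at 4609, 5051, 4564 and 4484 CPM in the double-knockout libraries, 4169, 3689 and 4050.2 CPM in the Raptor-knockout libraries and 2511, 2385, 2489.7 and 2825 CPM in the wild-type libraries. The 3 groups did not overlap. Tpt1 rose in the double knockout (log2 fold change 0.87, SE 0.11, edgeR adjusted p = 1.82e-05).

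Among libraries that lack Xist, which leaves 1 double-knockout, 3 Raptor-knockout and 3 wild-type libraries, 4 of the 8 members were called higher in the double knockout (Rack1, Hnrnpa1, Tpt1 and Naca), where 2.13% of tested genes were. The single double-knockout library is assumed there to vary like the others, and the members' median log2 fold change was 0.82. Without double-knockout replicates 3 and 4, those of the smaller run, 7 members were called again, where 8.78% of tested genes rose.

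The members are ordered here by the deposited TPM, which divides by transcript length. Tpt1 stood at 7472 ± 481 TPM in the double knockout, 6130.1 ± 261 in the Raptor knockout and 3653 ± 186 in wild type. Rack1 stood at 1879 ± 109 TPM in the double knockout, 1431 ± 54.5 in the Raptor knockout and 889.9 ± 108 in wild type. Fau stood at 629.7 ± 55.7 TPM in the double knockout, 517 ± 58.9 in the Raptor knockout and 357 ± 31.4 in wild type. For these 3 the libraries of one gene did not overlap those of the next in any group. Naca stood at 485 ± 39.8 TPM in the double knockout, 406 ± 24.3 in the Raptor knockout and 242 ± 40.6 in wild type. Btf3 stood at 195 ± 9.40 TPM in the double knockout, 195 ± 13.5 in the Raptor knockout and 114 ± 21.8 in wild type. Npm1 stood at 189 ± 19.6 TPM in the double knockout, 165 ± 2.03 in the Raptor knockout and 85.1 ± 13.8 in wild type. Btf3 and Npm1 overlapped in the double knockout and in wild type, where they do not differ beyond their spread, but not in the Raptor knockout. Pabpc1 stood at 100.2 ± 45.1 TPM in the double knockout, 71.9 ± 71.4 in the Raptor knockout and 75.1 ± 24.7 in wild type. Hnrnpa1 stood at 82.4 ± 8.55 TPM in the double knockout, 75.3 ± 6.52 in the Raptor knockout and 27.1 ± 1.87 in wild type. Pabpc1 overlapped Hnrnpa1 in both knockouts and Npm1 in wild type, where Hnrnpa1 lay below all other members. Tags come from the 3' end whatever the length, so division by length places long transcripts lower than their tag counts would. Fau and Naca changed places by measure, since in CPM every Naca library lay above every Fau library of its group. The lowest Naca library stood at 379.5 CPM in the double knockout, 328 in the Raptor knockout and 204 in wild type. The highest Fau library stood at 267, 221 and 157 CPM in the same order. The TPM order of these members is therefore not an order of tag counts.

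In Raptor-knockout muscle, 7 of the 8 members rose against wild type and 0 fell, where 8.73% of tested genes rose and 9.43% fell (18.2% in either direction). The study's design text does not list this contrast among those of interest, but its groups allow it. Their median log2 fold change was 0.62, beside 0.0013 over all tested genes. It shares its 4 wild-type libraries with the comparison of the double knockout. Hnrnpa1 rose 2.63-fold (log2 fold change 1.40, SE 0.13, edgeR adjusted p = 5.36e-06). The nascent-chain subunits Btf3 and Naca rose 1.60-fold (log2 fold change 0.68, SE 0.14, edgeR adjusted p = 0.00287) and 1.56-fold (log2 fold change 0.64, SE 0.12, edgeR adjusted p = 0.00183). Tpt1 rose 1.56-fold (log2 fold change 0.64, SE 0.11, edgeR adjusted p = 0.000945) and the small-subunit scaffold Rack1 1.52-fold (log2 fold change 0.60, SE 0.12, edgeR adjusted p = 0.00208). Npm1 rose 1.49-fold (log2 fold change 0.57, SE 0.16, edgeR adjusted p = 0.0177), but its call ended among the libraries that lack Xist (0.59, adjusted p = 0.0664) and without Raptor-knockout replicate 2 (0.46, adjusted p = 0.0802). Fau, at 1.32-fold, had the weakest call (log2 fold change 0.40, SE 0.13, edgeR adjusted p = 0.0425), and 10 of 19 alternatives ended it with the sign kept. Among these were DESeq2 size factors (adjusted p = 0.0505), no filter on low counts (adjusted p = 0.162) and leaving out Raptor-knockout replicate 1 or 3 or wild-type replicate 1, 2 or 3 (adjusted p from 0.0541 to 0.208). In the libraries lacking Xist 5 of 8 members were called, where 4.96% of tested genes rose. For all 7 genes the 3 Raptor-knockout libraries lay above the 4 wild-type libraries, as for 14.0% of tested genes. Pabpc1 again did not pass (log2 fold change 0.27, SE 0.34, edgeR adjusted p = 0.628), and without Raptor-knockout replicate 2 its log2 fold change was -0.27 (adjusted p = 0.54).

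**Figure D2:**
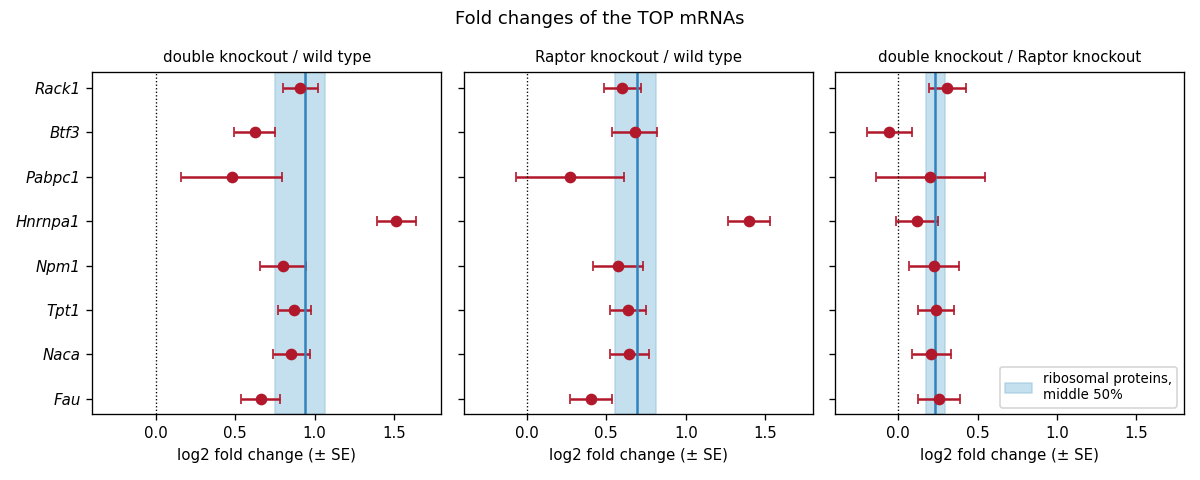
Log2 fold changes with SE (horizontal axis) of the 8 TOP mRNAs in the 3 comparisons, beside the median (line) and the middle 50% (band) of the 78 tested ribosomal protein genes. Hnrnpa1 lies to the right of the band in both comparisons with wild type, and between the knockouts the 8 members range from -0.06 (Btf3) to 0.31 (Rack1).

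Between the double knockout and the Raptor knockout, the other contrast the study names, edgeR called 0 of the 8 members in either direction, where 0.0286% of tested genes were called, 0.00952% higher and 0.019% lower. At an unadjusted p under 0.05 there was 1 member, Rack1, of 997 genes, and the DESeq2 Wald test also called 0. Their log2 fold changes ran from -0.055 (Btf3) to 0.31 (Rack1), with a median of 0.22 beside 0.00738 over all tested genes. Rack1 (log2 fold change 0.31, SE 0.12, edgeR adjusted p = 0.39) and Tpt1 (log2 fold change 0.24, SE 0.11, edgeR adjusted p = 0.536) were the members whose groups did not overlap, with every double-knockout library above every Raptor-knockout library, as for 5.18% of tested genes. The 95% intervals were 0.060 to 0.56 for Rack1, -0.0032 to 0.48 for Tpt1, -0.16 to 0.40 for Hnrnpa1 and -0.55 to 0.95 for Pabpc1. The data therefore do not show that the 2 knockouts have the same levels.

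The ribosomal protein genes, the largest group of TOP mRNAs, had a median log2 fold change of 0.94 in the double knockout and 0.69 in the Raptor knockout against wild type, over 78 tested genes. Of these, 74 rose in the double knockout and 66 in the Raptor knockout. Fau, although it encodes eS30, was not counted among these 78 genes. To ask whether the members changed by more or less than that group, the fit was repeated with each library scaled by its summed ribosomal protein counts. On this scale 1 of 8 members, Hnrnpa1, was called in each comparison with wild type, where 71.1% (double knockout) and 54.3% (Raptor knockout) of tested genes were called, 1.78% and 1.87% as higher. By the choice of scale the median of all tested genes moved to -0.90 in the double knockout and -0.68 in the Raptor knockout. Hnrnpa1 rose beyond the ribosomal protein genes by 0.59 (95% interval 0.31 to 0.87, edgeR adjusted p = 0.00101) on the log2 scale in the double knockout and by 0.70 (95% interval 0.41 to 1.0, edgeR adjusted p = 0.000828) in the Raptor knockout. Its log2 fold change with TMM scaling exceeded that of all 78 ribosomal protein genes in the double knockout and of 77 of 78 in the Raptor knockout. In the libraries that lack Xist, with 1 double-knockout library, the double-knockout value was 0.43 (adjusted p = 0.138).

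Rack1, Tpt1 and Naca kept close to the ribosomal protein genes in the double knockout, at -0.0092 (95% interval -0.22 to 0.20, edgeR adjusted p = 0.938), -0.050 (95% interval -0.27 to 0.17, edgeR adjusted p = 0.672) and -0.073 (95% interval -0.32 to 0.17, edgeR adjusted p = 0.579). In the Raptor knockout their values were -0.086, -0.054 and -0.049. Btf3 stood at -0.31 (95% interval -0.61 to -0.0084, edgeR adjusted p = 0.0613) and Fau at -0.27 (95% interval -0.54 to -0.0041, edgeR adjusted p = 0.0641) in the double knockout, neither of which passed. Both passed as lower than the ribosomal protein genes without wild-type replicate 4, at -0.43 for Btf3 and -0.35 for Fau (edgeR adjusted p = 0.00237 and 0.0115), and Fau did so in the Raptor knockout too (-0.37, edgeR adjusted p = 0.0172). Pabpc1 had the widest interval, at -0.44 (95% interval -1.22 to 0.33, edgeR adjusted p = 0.276). In the Raptor knockout without its replicate 2, Pabpc1 passed as lower than the ribosomal protein genes (-0.99, edgeR adjusted p = 0.0276). Lower calls were common on this scale, where the median of all tested genes was -0.90 in the double knockout and -0.68 in the Raptor knockout with all libraries. Between the knockouts 0 of 8 members were called on this scale, where 0.143% of tested genes were, 0.00952% as higher.

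**Figure D3:**
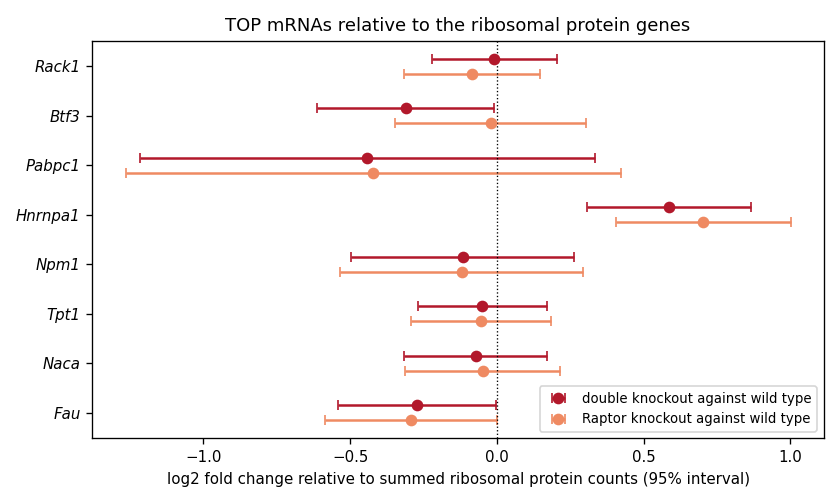
Log2 fold change of each TOP mRNA relative to the summed ribosomal protein counts, with its 95% interval, for the double knockout (dark) and the Raptor knockout (light) against wild type. Hnrnpa1 is the member whose intervals lie wholly to the right of 0 in both comparisons.

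Libraries of a group differed from each other, and in part of the knockout libraries the pattern split the members. Pabpc1 and Npm1 were both below their group means in double-knockout replicate 2, Raptor-knockout replicates 1 and 3 and wild-type replicate 4, and above them in the other 7 libraries. The deviations of Pabpc1 from its group mean on the log2 CPM scale ran from -0.64 in wild-type replicate 4 to 0.83 in Raptor-knockout replicate 2, and those of Npm1 from -0.35 to 0.22 in the same 2 libraries. Btf3, Naca and Fau went the other way from Pabpc1 in double-knockout replicates 2 and 3 and in all 3 Raptor-knockout libraries. This split was not seen in wild type, where Btf3 and Fau had the sign of Pabpc1 in every library. In wild-type replicate 4, Btf3 (-0.33), Naca (-0.17) and Fau (-0.15) were low together with Pabpc1 and Npm1. The deviations of Rack1 ran from -0.20 to 0.13 and those of Tpt1 from -0.10 to 0.15.

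**Figure D4:**
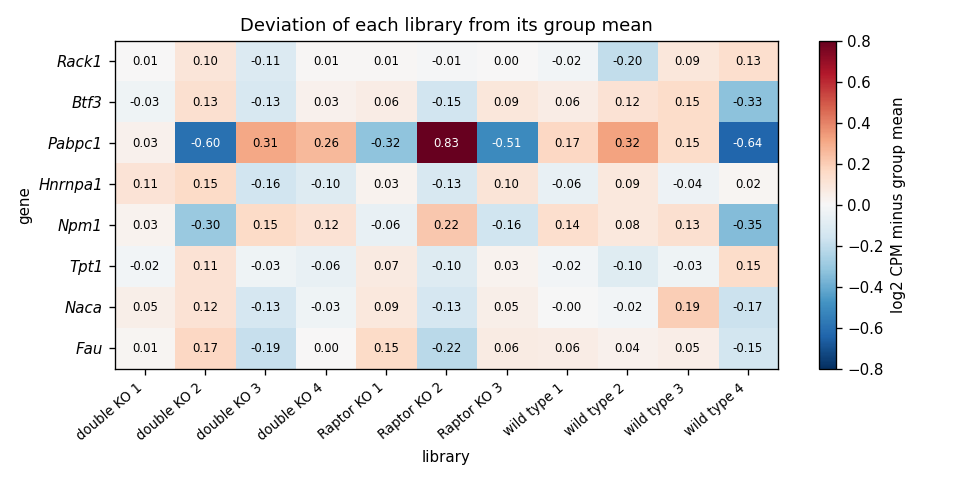
Log2 CPM of each TOP mRNA in each library minus the mean of its group (colour and printed value), with double-knockout, Raptor-knockout and wild-type libraries from left to right. Pabpc1 has the largest deviations, and Npm1 follows their sign in all 11 libraries.

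The deposited TPM of Pabpc1 showed the same 4 libraries more sharply. It was 33.0 in double-knockout replicate 2, 35.0 and 26.4 in Raptor-knockout replicates 1 and 3 and 38.7 in wild-type replicate 4, and 82.2 to 154 in the other 7 libraries. Its TPM per CPM was 0.346 to 0.631 in those 4 libraries and 0.720 to 0.946 in the others, so TPM and CPM did not carry the same information for this gene. The 4 libraries came from all 3 genotypes and 1 sequencing run, the larger. They were noted after the values were seen.

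Other TOP mRNAs and partners of the members were counted in the same fit, each against wild type. Medians are given for the double knockout first and the Raptor knockout second, and over all tested genes they were 0.018 and 0.0013. The counts of each list are to be set beside the 13.0% of tested genes that rose and 13.7% that fell in the double knockout, and 8.73% and 9.43% in the Raptor knockout. Among translation factors with TOP motifs, 7 of 14 rose and 0 fell in the double knockout, and 5 rose and 0 fell in the Raptor knockout, with median log2 fold changes of 0.46 and 0.32. The elongation factor Eef1a1 rose 4.73-fold (log2 fold change 2.24, edgeR adjusted p = 6.22e-08; its processed copies were not examined), beyond the fold of each of the 8 members, and the initiation factor subunit Eif3h 1.61-fold (log2 fold change 0.69, edgeR adjusted p = 0.000499). Among other transcripts reported as TOP or TOP-like, 8 of 15 rose and 1 fell in the double knockout, and 6 rose and 1 fell in the Raptor knockout, with median log2 fold changes of 0.57 and 0.57. The snoRNA host Gas5 rose 2.56-fold (log2 fold change 1.36, edgeR adjusted p = 5.92e-06) and the chaperonin subunit Cct4 2.03-fold (log2 fold change 1.02, edgeR adjusted p = 8.1e-06), while cyclin G1 (Ccng1) fell by 1.07 on the log2 scale (edgeR adjusted p = 9.85e-06).

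Of the factors listed as binding or controlling TOP mRNAs, 1 of 16 rose and 5 fell in the double knockout, and 1 rose and 6 fell in the Raptor knockout, with median log2 fold changes of -0.31 and -0.36. Larp1, the TOP cap-binding repressor, stood at 134 ± 6.12 CPM in the double knockout, 144 ± 7.48 in the Raptor knockout and 225 ± 14.1 in wild type. Its log2 fold change in the double knockout was -0.74 (edgeR adjusted p = 9.19e-05). Its paralog Larp1b fell by 0.76 (edgeR adjusted p = 0.000256). Of the genes for other proteins that act at the ribosome exit or on nascent chains, 0 of 14 rose and 2 fell in the double knockout, and 0 rose and 4 fell in the Raptor knockout, with median log2 fold changes of -0.21 and -0.090. The share that fell in the double knockout is near the 13.7% of all tested genes. One that fell in the double knockout was Srpr, a subunit of the signal recognition particle receptor (log2 fold change -1.16, edgeR adjusted p = 0.000171). Metap2, a methionine aminopeptidase, was the other (log2 fold change -0.39, edgeR adjusted p = 0.0393).

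Among poly(A)-binding partners of Pabpc1, 1 of 12 rose and 4 fell in the double knockout, and 1 rose and 2 fell in the Raptor knockout, with median log2 fold changes of 0.017 and -0.0043. Those that fell in the double knockout include the PABPC1-interacting genes Paip2b (log2 fold change -0.93, edgeR adjusted p = 0.000287) and Paip1 (log2 fold change -0.80, edgeR adjusted p = 0.00842) and the deadenylase subunit Cnot7 (log2 fold change -0.64, edgeR adjusted p = 0.00951). In the hnRNP family without Hnrnpa1, 3 of 17 rose and 1 fell in the double knockout, and 3 rose and 1 fell in the Raptor knockout, with median log2 fold changes of 0.033 and 0.024. Hnrnpu, Hnrnpa0 and Hnrnpk rose by 0.66, 0.58 and 0.50 on the log2 scale in the double knockout (edgeR adjusted p = 0.000253, 0.00418 and 0.00652), beside 1.52 for Hnrnpa1. Of the nucleolar partners of Npm1, 4 of 14 rose and 1 fell in the double knockout, and 1 rose and 0 fell in the Raptor knockout, with median log2 fold changes of 0.30 and 0.16. Nucleolin (Ncl) rose 1.98-fold (log2 fold change 0.99, edgeR adjusted p = 5.21e-05), and the snoRNP protein gene Nop58 and the polymerase I factor gene Ubtf rose by 0.59 and 0.51 on the log2 scale (edgeR adjusted p = 0.0182 and 0.0272). Of 8 reported partners of Tpt1, which share Eef1a1 and Eef1b2 with the translation factors, 5 rose and 1 fell in the double knockout, and 4 rose and 1 fell in the Raptor knockout, with median log2 fold changes of 0.65 and 0.42. The muscle elongation factor Eef1a2 rose 1.71-fold (log2 fold change 0.77, edgeR adjusted p = 0.000144) and Tsc1 fell by 0.91 on the log2 scale (edgeR adjusted p = 0.000346).

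The genes whose log2 CPM over the 11 libraries was most like the mean standardised log2 CPM of the members were, in order of Pearson's r, Rps15a (0.993), Igf2 (0.991), Rpl23 (0.990), Ankrd1 (0.989), Rpl6 (0.988) and Rpl24 (0.985), with Spearman's rho from 0.900 to 0.982. The libraries fall into 3 genotypes, so these are not 11 independent points. Of these genes, 4 encode ribosomal proteins, Igf2 encodes a growth factor and Ankrd1 a stress-responsive titin-binding protein. By single member, the most like genes were Rpl26 for Rack1 (r = 0.994), Rps24 for Btf3 (r = 0.982), Rps18 for Naca (r = 0.992), Rpl28 for Tpt1 (r = 0.996) and the predicted gene Gm14586 for Fau (r = 0.981), all over 11 libraries. Hnrnpa1 was most like Hnrnpu (r = 0.994) and Npm1 most like Anp32b, a histone-chaperone gene (r = 0.987). Pabpc1 was most like the proteasome subunit gene Psmd11 (r = 0.951). These 3 genes encode no ribosomal protein, and what Gm14586 encodes was not examined. Psmd11 stood at 185 CPM in double-knockout replicate 2, 221 and 189.9 in Raptor-knockout replicates 1 and 3 and 144 in wild-type replicate 4, and at 222 to 300.5 in the other libraries. Raptor-knockout replicate 1 (221) and wild-type replicate 1 (222) barely differed. Psmd11 was picked for its likeness to Pabpc1 over these same libraries, so its low values there are no separate evidence of a pattern.

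Lists of cell-type markers, myofibres included, were counted beside the members, where 13.0% of tested genes rose in the double knockout and 8.73% in the Raptor knockout. A list names the cells its genes are used for, and bulk RNA does not show which cells held the transcripts. Of 10 myofibre markers, which had counts in all 11 libraries, 3 rose and 4 fell in both knockouts. They summed to 93214 to 112079 CPM in the double knockout, 94749.8 to 105064 in the Raptor knockout and 110339 to 115505 in wild type. Of 10 markers of satellite cells and regenerating fibres, 6 were tested, and all 6 rose in both knockouts. They summed to 349 to 391 CPM in the double knockout, 234 to 249.5 in the Raptor knockout and 36.1 to 46.5 in wild type. The other 4 were too low to test. Of these, the satellite-cell marker Pax7 averaged 1.37 CPM in the double knockout, 0.825 in the Raptor knockout and 1.31 in wild type, and Myf5 1.41 CPM in the double knockout, 1.72 in the Raptor knockout and 0.823 in wild type. Mymk was at 0 in all 4 wild-type libraries and in no knockout library, and Mymx was at 0 in 1 double-knockout, 2 Raptor-knockout and 3 wild-type libraries. Fibroblast markers rose in 8 of 10 cases in the double knockout and 4 in the Raptor knockout, with sums of 2015 to 2255 CPM in the double knockout, 1782 to 1883 in the Raptor knockout and 1013 to 1658 in wild type. Macrophage markers rose in 6 of 9 tested cases (of 10 listed) in the double knockout and 5 in the Raptor knockout, with sums of 171 to 230.3 CPM in the double knockout, 122 to 259 in the Raptor knockout and 81.2 to 142 in wild type. Tendon markers rose in 3 of 4 tested cases (of 5 listed) in both knockouts, with sums of 191 to 273 CPM in the double knockout, 181 to 242 in the Raptor knockout and 93.7 to 121 in wild type. Endothelial markers rose in 0 of 7 tested cases (of 8 listed), with sums of 167 to 201 CPM in the double knockout, 173 to 210.1 in the Raptor knockout and 170.1 to 251 in wild type. Blood markers rose in 0 of 5 cases in the double knockout and 1 in the Raptor knockout, with sums of 2612 to 3174 CPM in the double knockout, 2177 to 10013 in the Raptor knockout and 1666 to 3363 in wild type. Which cells expressed these markers, and the part of any cell type in the rise of the TOP mRNAs, was not tested.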

How the data were processed

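The authors deposited expected counts per gene and library, not normalized, and TPM (transcripts-per-million) per library. Per the submitters' processing notes these came from fastp 0.20.0, STAR 2.7.0 and RSEM 1.3.3 with GRCm38 (mm10), and the annotation, filters and strand setting are not given in the sources used here. No label matched 6 further columns, which were left out. The expected counts were rounded (2.25% were not whole). Of the 55487 gene IDs, 55141 were found in the reference's gene-name table, and positions are those of GENCODE M21.

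In R 4.3.3, edgeR 4.0.16 fitted the 11 libraries by genotype: filterByExpr, TMM, robust quasi-likelihood F test, two-sided, Benjamini-Hochberg adjustment over all 10505 tested genes per contrast, called at an adjusted p under 0.05. The SE is the log2 fold change divided by the root of F. The fit was also run on simulated data. Fewer genes were changed there than were called against wild type here, so no support for these calls is drawn from it.

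Named genes are the 8 members, Rptor and Mtor, up to 3 genes per list with the smallest adjusted p in the double knockout against wild type, or the 2 most abundant where none passed, and the most like genes. Ribosomal protein genes are named only among the most like genes, and from the marker lists only the 4 untested satellite-cell and regenerating markers are named, chosen after their values were seen. A further gene that the rule names is not reported here. The members and lists were chosen with earlier results of these data known. Alternatives were DESeq2 1.42.0 size factors or Wald test, library totals, no filter, 2 groups, the sequencing run as a covariate or left out, limma 3.58.1 on log2 of TPM plus 1 or 0.1 (mean TPM of at least 1), libraries lacking Xist (under 10 CPM), copies summed (at least 90% identity over 100 of the last 300 bases), the ribosomal protein scale, and each library left out. For the ribosomal protein scale, its alternatives were chosen after seeing the data.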

Additional observations from a re-analysis of the deposited data

Results flagged for a closer look

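Over the 8 members, 16 groups of 4 libraries were examined for a library far from the rest, and 2 stood out, where chance flags about 1 in 20 groups. Both were wild-type replicate 4. Npm1 stood at 85.2 CPM there, against 115 to 119 CPM in the other 3 wild-type libraries. Fau stood at 136 CPM there, against 154 to 157 CPM in the others. Without this library Npm1 had a log2 fold change of 0.70 in the double knockout and 0.47 in the Raptor knockout, and Fau one of 0.61 and 0.36, and all 4 calls were made.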

How the results depend on the processing

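No paired analysis was possible because the labels give no replicate numbers that the groups share. The 7 calls in the double knockout against wild type were made under all 20 alternatives except 2, namely in the libraries lacking Xist, where 4 members were called and Btf3 (0.68), Npm1 (0.93) and Fau (0.65) were not, and on the ribosomal protein scale, where 1 was called. The count was 7 without any single library. In the Raptor knockout it ran from 6 to 7 without single libraries, was 5 in libraries lacking Xist and 1 on the ribosomal protein scale, and Fau (0.32 to 0.44 where its call ended) was the member most often lost. The ribosomal protein scale, which by construction gives a difference from those genes, turned the values to -0.0092 (Rack1), -0.31 (Btf3), -0.44 (Pabpc1), -0.12 (Npm1), -0.050 (Tpt1), -0.073 (Naca) and -0.27 (Fau) in the double knockout, to -0.086 (Rack1), -0.021 (Btf3), -0.42 (Pabpc1), -0.12 (Npm1), -0.054 (Tpt1), -0.049 (Naca) and -0.29 (Fau) in the Raptor knockout, and to -0.020 (Pabpc1), -0.12 (Hnrnpa1) and -0.024 (Naca) between the knockouts. Pabpc1 was also reversed in the Raptor knockout without its replicate 2 (-0.27, the lowest without single libraries, where the highest was 0.51) and on TPM (-0.43 and -0.44 with pseudocounts of 1 and 0.1). Between the knockouts it was reversed with the run as a covariate (-0.091), without the smaller run (-0.091) and without Raptor-knockout replicate 3 (-0.036, with 0.74 as the highest without single libraries), and Btf3 on TPM (0.0050 and 0.00504). The cause was not tested. Relative to the ribosomal protein genes, 3 members were called in the double knockout (Hnrnpa1 higher, Btf3 and Fau lower) and 2 in the Raptor knockout (Hnrnpa1 higher, Fau lower) with a geometric mean in place of the sum, and 0 in the double knockout in libraries lacking Xist. Without single libraries these counts ran from 1 to 3, 1 to 2 and, between the knockouts, stayed at 0. With the sum and all libraries, 71.1% of tested genes were called in the double knockout and 54.3% in the Raptor knockout. Only 1.78% and 1.87% were called higher, so a lower call for Btf3 or Fau is what most called genes show. Over all tested genes, 2802 were called in the double knockout, 1908 in the Raptor knockout and 3 between the knockouts, and without single libraries 2160 to 3344, 1140 to 2413 and 0 to 27, with 1140 and 1224 in the Raptor knockout without its replicate 1 or 3 and 27 between the knockouts without Raptor-knockout replicate 2. In libraries lacking Xist there were 472 in the double knockout, 1265 in the Raptor knockout and 0 between them. Between the knockouts there were 105 with no filter, 157 with only those groups in the fit, 89 by the DESeq2 Wald test and 1 on TPM with a pseudocount of 1. With library totals the median of all genes moved to 0.25 (double knockout) and 0.20 (Raptor knockout), and the split of calls became 2421 higher and 844 lower, and 1638 and 573, while the members' median was 1.06 and 0.82. On TPM with a pseudocount of 1 the double-knockout split was 1766 higher and 779 lower, and the Raptor-knockout split 1031 and 519.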
